A study of Mus musculus with 12 samples.

Results

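Heat shock proteins and the J-domain co-chaperones of the DNAJ families were followed as a group of 73 genes, among 18193 genes with a single symbol on the array. The members are all genes of the array's gene annotation whose symbol begins with Hsp or Dnaj, and where a gene has several probe sets, the one with the highest log2 signal averaged over the 12 arrays stands for it. Of the 73 members, 62 had a signal above the array median on at least 3 arrays and were tested. The cells profiled were haematopoietic stem cells (HSCs), from which all blood lineages are renewed, in 4 groups of 3 biological replicates. Wild-type mice and mice heterozygous for an Nras allele that encodes the G12D substitution (NrasG12D/+) each gave a GFP- and a GFPhigh population. The labels call GFP- HSCs cycling and GFPhigh HSCs quiescent. All mice of all 4 groups drank doxycycline for 6 weeks and were sampled 12 weeks after its removal. Nras is a small GTPase upstream of the ERK and PI3K kinases. The promoter that drives GFP, the way the Nras allele was switched on, the age and sex of the mice, and whether marrows were pooled are not given in the sources used here.

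HSP70 chaperones bind unfolded stretches of proteins and release them in a cycle of ATP hydrolysis, which J-domain proteins start and nucleotide exchange factors reset. HSP90 finishes the folding of kinases and receptors, HSP60 and HSP10 form the folding chamber of mitochondria, and small heat shock proteins hold unfolding proteins without using ATP. The heat shock factor HSF1 switches on the cytosolic and mitochondrial genes by binding heat shock elements, and the unfolded protein response switches on the genes of the endoplasmic reticulum (ER) through its own elements. HSCs make protein slowly, and a rise in unfolded protein is known to impair their self-renewal.

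Promoter sequences are shown first, for the elements of the stress pathways named above. The members below are grouped by compartment and protein family, not by their promoters. RefSeq windows of 250 bases upstream of the transcription start (GRCm38.p6) were matched for 60 of the 73 members, in 77 windows. Hspa8, Hsp90aa1 and Hspa9 were among the members without a window, so their promoters were not searched. On either strand, the heat shock element, searched as the units GAA, TTC and GAA with 2 bases between neighbours, was found in Hspd1, Hspe1 and Dnajb6, which is 5% of the matched members, and in 0.466% of all 32851 windows. Hspd1 (HSP60) and Hspe1 (HSP10) are divergent neighbours whose windows overlap and hold the same element. The ER stress element, searched as CCAAT and CCACG with 9 bases between them, was found in Hspa5, Hsp90b1 and Dnajc3, also 5% of the matched members, and in 0.113% of all windows. The element TGACGTGG of the unfolded protein response was found in 1 member, Dnajc25 (1.67%), and in 0.563% of all windows. The member shares count genes with a match in any of their windows, while the shares of all windows count single windows. These shares are therefore in unlike units. The window of Dnajb9, the member of smallest p in GFPhigh against GFP- HSCs of Nras mice, held none of the 3 patterns. A pattern missing from 250 bases says nothing about the factor. The windows of Hspe1 (chr1:55087898-55088147, plus strand), Hspa5 (chr2:34771840-34772089, plus strand), Hsp90b1 (chr10:86705445-86705694, minus strand), Dnajc3 (chr14:118937682-118937931, plus strand) and Dnajb9 (chr12:44210069-44210318, minus strand) follow, 5′ to 3′. Capitals mark the matches.
Hspe1: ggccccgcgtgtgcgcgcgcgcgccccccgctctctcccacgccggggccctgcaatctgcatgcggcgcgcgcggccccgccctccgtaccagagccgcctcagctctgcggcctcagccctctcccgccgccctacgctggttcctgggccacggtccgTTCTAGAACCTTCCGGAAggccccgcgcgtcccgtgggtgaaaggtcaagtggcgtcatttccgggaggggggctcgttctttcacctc
Hspa5: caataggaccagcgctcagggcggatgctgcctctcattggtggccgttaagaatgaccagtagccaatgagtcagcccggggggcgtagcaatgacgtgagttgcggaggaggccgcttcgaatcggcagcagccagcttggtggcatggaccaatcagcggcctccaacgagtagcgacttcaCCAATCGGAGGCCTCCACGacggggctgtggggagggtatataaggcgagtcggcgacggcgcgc
Hsp90b1: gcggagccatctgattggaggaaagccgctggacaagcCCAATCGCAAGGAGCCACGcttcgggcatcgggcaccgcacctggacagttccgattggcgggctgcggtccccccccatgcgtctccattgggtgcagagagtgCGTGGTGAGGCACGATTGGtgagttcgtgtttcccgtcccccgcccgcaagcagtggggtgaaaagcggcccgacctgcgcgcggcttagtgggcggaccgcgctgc
Dnajc3: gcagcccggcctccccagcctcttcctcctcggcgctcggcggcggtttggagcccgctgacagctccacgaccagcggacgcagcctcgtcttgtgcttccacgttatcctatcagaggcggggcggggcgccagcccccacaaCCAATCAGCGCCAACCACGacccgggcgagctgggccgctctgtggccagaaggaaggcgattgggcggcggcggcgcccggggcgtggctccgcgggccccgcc
Dnajb9: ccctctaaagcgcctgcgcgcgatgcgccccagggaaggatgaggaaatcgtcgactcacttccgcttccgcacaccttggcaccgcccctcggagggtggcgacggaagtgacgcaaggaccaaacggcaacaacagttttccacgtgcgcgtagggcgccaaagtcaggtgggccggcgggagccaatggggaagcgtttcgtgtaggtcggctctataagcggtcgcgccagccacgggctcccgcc
In the Hspe1 window the element occurs as a pair of overlapping matches that begin 89 and 84 bases before the start. In the Hspa5 window the ER stress element begins 65 bases before the start. The Hsp90b1 window holds 2 ER stress elements, at 212 and 107 bases, and the Dnajc3 window holds 1, at 105 bases.

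The arrays differed in quality in ways that touch the results below. Array medians lay between 44 and 129.6 signal units, and 4 arrays had a limma array weight under 0.6: wild-type GFPhigh replicate 2, Nras GFP- replicate 1 and Nras GFPhigh replicates 1 and 2. The 3′ Gapdh probe set divided by the 5′ one, a sign of RNA degradation, was 7.28 and 5.7 in Nras GFPhigh replicates 1 and 3 and 2.57 to 4.48 elsewhere. The 10 HSC markers on the array were all above the array median on 11 arrays, and 9 of them were on Nras GFP- replicate 1. Summed over 12 granulocyte markers, the signal was 44643 and 59185 in Nras GFPhigh replicates 1 and 2, 6037 in replicate 3, and 1032 to 13391 in the other groups. In bulk RNA, more RNA per cell and more cells that carry a transcript cannot be told apart.

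No member passed limma's test at a Benjamini-Hochberg adjusted p under 0.05 in any of the 7 comparisons. Across all 12083 genes tested, that threshold was passed by 0% in 6 comparisons and by 1 gene (0.00828%), not a member, in Nras against wild-type averaged over both populations. At adjusted p under 0.1, the count of members was still 0 in each comparison. The members are therefore described by their values, by counts at an unadjusted p under 0.05 beside the share of all genes at that level, and by medians of log2 fold changes beside the median of all genes tested. The heat map of every tested member by array shows narrow rows for the abundant housekeeping chaperones and wide rows for the dim members.

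**Figure D1:**
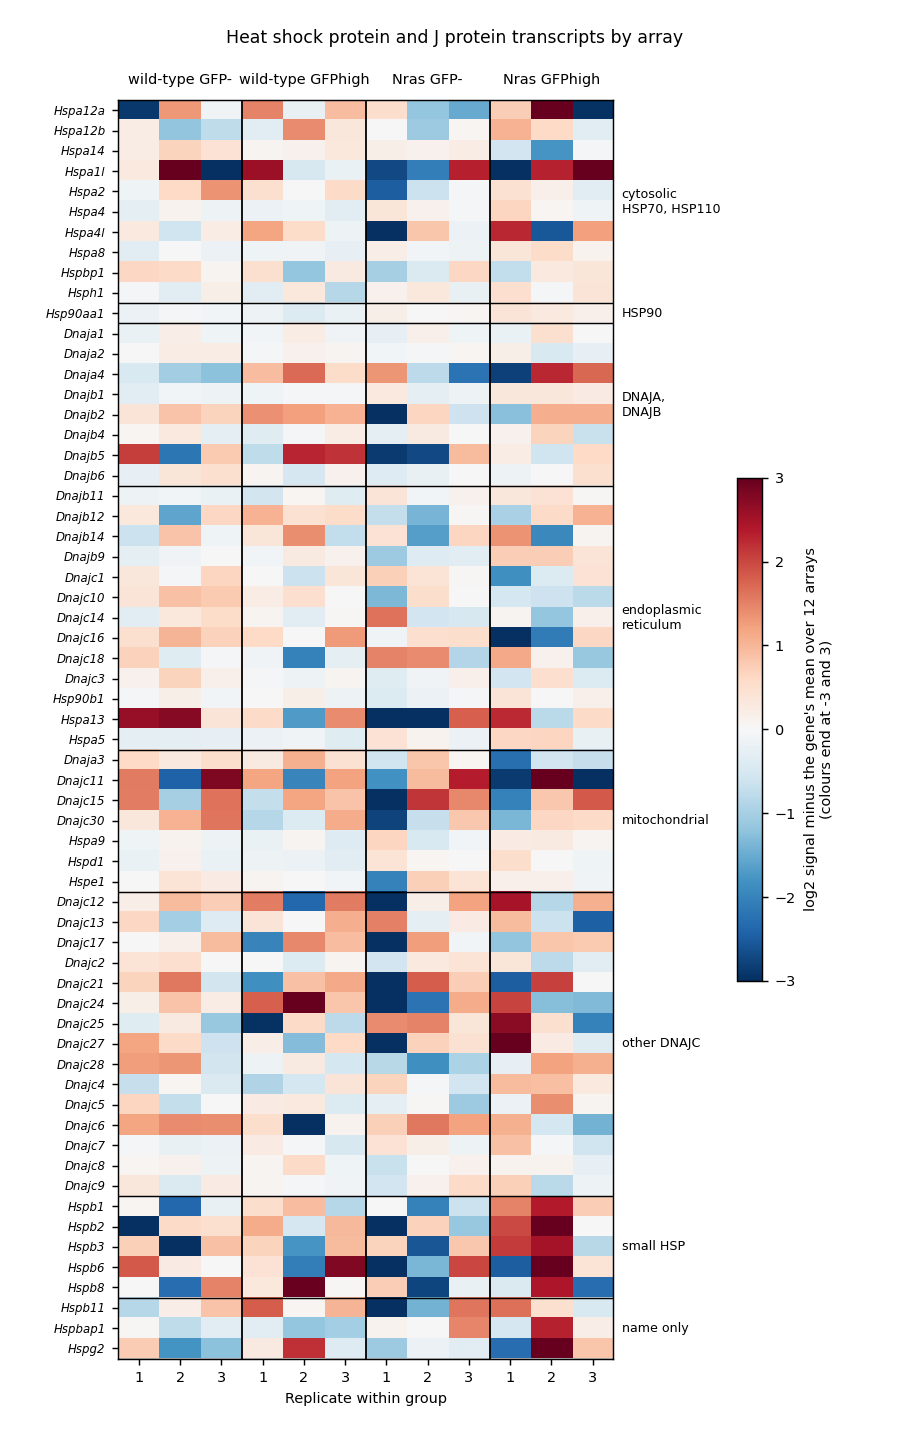
Each row is 1 of the 62 tested members and each column 1 of the 12 arrays. Colour gives the log2 signal minus the gene's mean over all arrays, with the scale ending at -3 and 3. Hspa8, Hsp90aa1, Dnaja1 and Dnajb1 stay pale in every column, while Hspa1l, Dnajc11 and the small heat shock proteins swing between arrays of the same group.

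Several constitutive chaperones varied little over the 12 arrays. Dnaja1, a main J-domain partner of cytosolic HSC70, lay between 5075 and 8384 signal units. Dnaja2, a second such partner, lay between 3438 and 5560, and neither gene reached an unadjusted p under 0.05 in any of the 7 comparisons. Dnajb6, a J protein that keeps aggregation-prone proteins soluble and that carries a heat shock element in its promoter, lay between 2579 and 5144. Dnajc2, which works at the ribosome on nascent chains, lay between 2434 and 5912. The groups overlapped for each of these 4 genes. Dnajc5, the cysteine string protein that guards vesicle fusion proteins, varied more, from 584 to 3216. Dnaja4, a stress-inducible relative of Dnaja1, read 112, 74.4 and 64.7 in wild-type GFP- and 289, 491 and 223 in wild-type GFPhigh HSCs, without overlap (1.96 ± 1.25). In Nras mice it read 382, 89 and 32.9 against 22, 737 and 506.5, and the groups overlapped. Dnajb2, a neuronal J protein that delivers clients to the proteasome, read 1607, 2226 and 1945 in wild-type GFP- and 13.5, 1938 and 797 in Nras GFP- HSCs, and the lowest value came from an array of low weight (-2.79 ± 1.37).

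The stress-inducible HSP70 genes Hspa1a and Hspa1b were close to background. Hspa1a read 1.6 to 37.9 and was above the array median on 0 arrays. Hspa1b read 0.4 to 33.7 on 11 arrays and 342 on Nras GFPhigh replicate 2, the only array where it passed the median. Both genes remained untested, and as near-identical paralogs they may share probe hybridisation. The other untested members were Hspb7, Hspb9, Dnajb3, Dnajb7, Dnajb8, Dnajb13, Dnajc5b, Dnajc5g and Dnajc22, several of which are known from testis, heart or other specialised tissues.

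GFPhigh against GFP- HSCs of wild-type mice asks how chaperone transcripts differ between HSCs labelled quiescent and cycling. In wild-type mice the members showed little difference: 0 members read higher and 1 lower at an unadjusted p under 0.05, or 1.61% of 62, against 2.2% of all genes (1.05% higher and 1.15% lower). The member median was -0.10 and the median of all genes -0.03 on the log2 scale, and 26 of the 62 members read higher, against 47.8% of all genes. The 1 member was Dnajc6 (auxilin), which recruits HSC70 to strip clathrin from vesicles. Its signals were 965, 1142 and 1121 in wild-type GFP- HSCs and 612, 2.9 and 462 in GFPhigh HSCs. All 3 GFPhigh arrays lay below all 3 GFP- arrays, and the value of 2.9 in replicate 2 sets the size of the log2 fold change of -3.52 ± 1.56 (SE from limma, n = 3 per group, adjusted p = 1). With a pseudocount of 100 it was -1.76. Without the arrays of low weight, which include that replicate, it was -1.01. In Nras mice Dnajc6 had -1.47 ± 1.56.

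In Nras mice the same comparison gave larger values, and Dnajb9 had the smallest p of the members. Dnajb9 (ERdj4) is an ER J protein that brings misfolded proteins to the HSP70 of the ER, BiP, and that helps to keep the stress sensor IRE1 silent. In Nras GFP- HSCs its signals were 1785, 2903 and 2987, and in Nras GFPhigh HSCs they were 6267, 6291 and 4957. Wild-type GFP- HSCs read 3100.1, 3517 and 3801, and wild-type GFPhigh HSCs 3589, 4558 and 4099. The Nras GFPhigh arrays were above, and the Nras GFP- arrays below, every array of the other 3 groups. The log2 fold change of GFPhigh over GFP- was 1.22 ± 0.26 in Nras mice (SE, n = 3 per group, limma adjusted p = 0.130) and 0.23 ± 0.26 in wild-type mice (limma adjusted p = 1). The difference between them, the interaction, was 0.99 ± 0.365 (limma adjusted p = 0.956). Over the alternatives the value in Nras mice stayed between 0.73 and 1.46 and the adjusted p between 0.0477 and 0.713, and the gene passed the threshold only without Nras GFPhigh replicate 3. It was 1.10 with quantile normalization, 0.73 with median centring and 0.75 without the 4 arrays of low weight, which left 1 Nras GFPhigh array. The granulocyte sums were also high on Nras GFPhigh replicates 1 and 2, and the Gapdh ratio on replicates 1 and 3; their part in the Dnajb9 values was not tested. Averaged over genotypes it was 0.73 ± 0.18 (limma adjusted p = 0.301). Dnajb9 has 1 probe set with a single symbol on the array, so no second measurement of it was available.

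**Figure D2:**
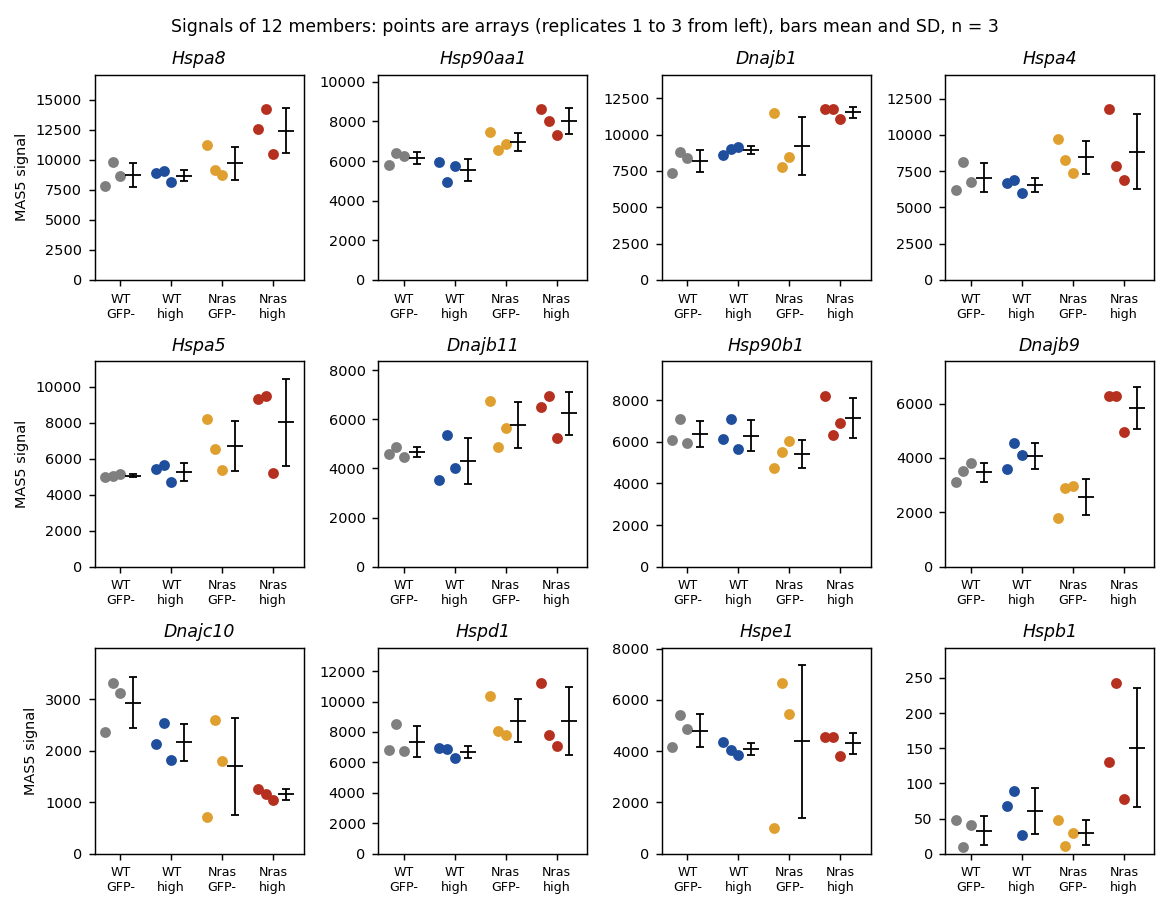
Signals of 12 members on a linear axis from 0, in MAS5 units, with arrays as points (replicates 1 to 3 from the left) and the mean and SD of each group beside them (WT, wild-type; n = 3). For Dnajb9 the Nras GFP- arrays (1785 to 2987) and the Nras GFPhigh arrays (4957 to 6291) lie on opposite sides of all wild-type arrays, while for Hspa5 Nras GFPhigh replicate 3 (5218) lies with the wild-type arrays.

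Among the 62 tested members, 7 read higher and 1 lower in GFPhigh than in GFP- HSCs of Nras mice at an unadjusted p under 0.05. These 8 are 12.9% of the members, against 12.2% of all genes (6.2% higher and 5.97% lower), so the members' share was close to the background. The 7 include Hspb1 and Hspb2, which passed the filter on low signal with the help of Nras GFPhigh replicates 1 and 2 and add no support. Hspa8 and Dnajb1 are also among the 7. Hspa8 read 11263, 9166 and 8705 in Nras GFP- and 12578, 14259 and 10472 in Nras GFPhigh HSCs. Dnajb1 read 11483, 7763 and 8439 against 11779, 11756 and 11082. The groups overlapped for both genes. Over the alternatives their log2 fold changes ranged from -0.133 to 0.473 and from -0.145 to 0.511. The member median was 0.34 and that of all genes 0.08, and 45 of 62 members read higher, against 53.2% of all genes. After median centring of the arrays, which moved the median of all genes from 0.08 to -0.405 in this comparison, the member median was -0.15 and 27 of 62 members read higher. With quantile normalization the member median was 0.21. The plot of the GFP label effect in each genotype shows the named members side by side.

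**Figure D3:**
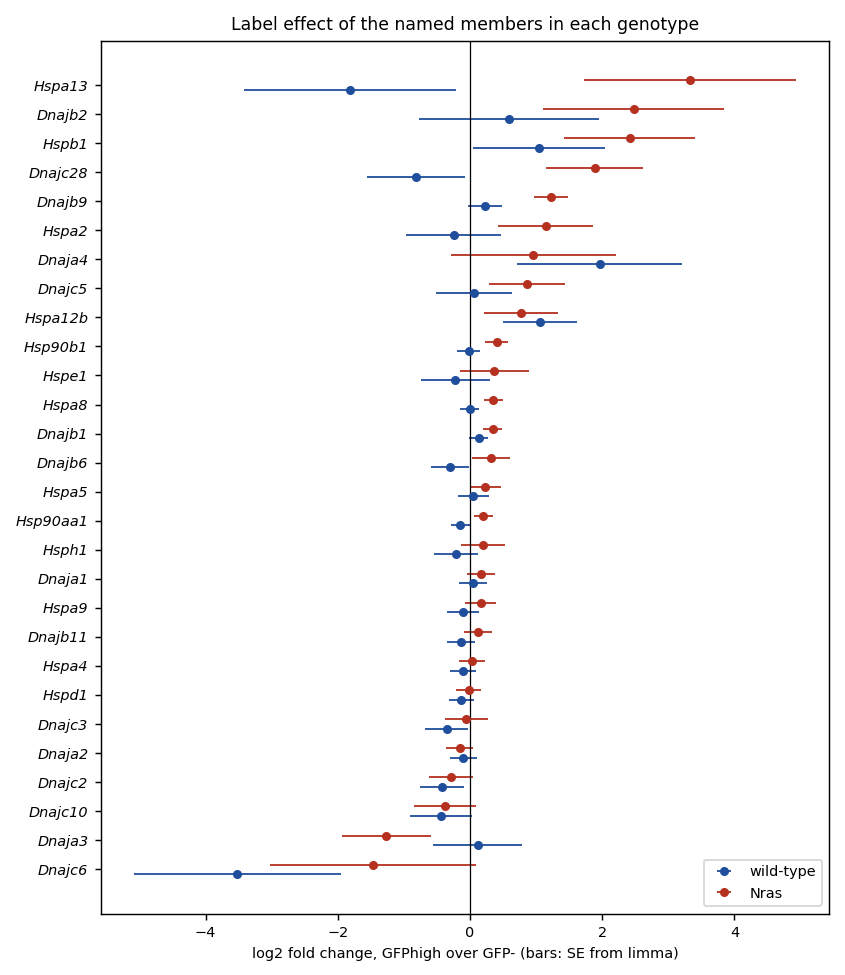
Log2 fold change of GFPhigh over GFP- HSCs for the 28 named members that were tested, in wild-type (blue) and Nras mice (red), with SE bars from limma. Dnajb9 has a narrow bar at 1.22 in Nras mice and 0.23 in wild-type mice, and the abundant chaperones Hspa8, Hsp90aa1, Hspa4, Hspd1 and Dnaja2 lie within 0.4 of 0 in both.

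Of the 13 ER members, 2 (Dnajb9 and Hsp90b1) read higher and 1 (Dnajc16) lower at an unadjusted p under 0.05, or 23.1% against 12.2% of all genes. Hsp90b1 (GRP94), the HSP90 of the ER, had signals of 4720, 5493 and 6033 in Nras GFP- and 8214, 6335 and 6923 in Nras GFPhigh HSCs. The log2 fold change was 0.40 ± 0.17 (SE, limma adjusted p = 0.386) with no overlap between the groups, and its second probe set gave -0.17 ± 0.18. Hspa5 (BiP), the ER HSP70 on which Dnajb9 acts, had 0.23 ± 0.23, and Dnajc3, an ER J protein that also inhibits the kinase PERK, had -0.055 ± 0.33. The promoters of these 3 genes hold the ER stress element shown above. Dnajb11, which stays bound to BiP clients, had 0.12 ± 0.21, and Dnajc10, an ER J protein that reduces disulfide bonds, -0.37 ± 0.47. Dnajc16, a J protein of ER membranes, read 578, 869 and 895 in Nras GFP- and 53.5, 145 and 947 in Nras GFPhigh HSCs, and the groups overlapped through replicate 3 (-1.98 ± 0.89). Over the ER members, 7 log2 fold changes were above 0 and 6 below, with a median of 0.03 beside 0.08 for all genes.

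Hspa13 (STCH), a short HSP70 of microsomes and also an ER member, had the highest log2 fold change among the named members in Nras mice, 3.33 ± 1.60, and it rested on low values. Its Nras GFP- signals were 14.9, 9.7 and 1251, and its Nras GFPhigh signals 1689, 204 and 537. The groups overlapped, and the 3 other probe sets of the gene gave -0.055, -0.20 and -1.95. Dnajc28, a J protein of little known function, read 226, 113 and 211 in Nras GFP- and 343, 940 and 845 in Nras GFPhigh HSCs. Those groups did not overlap, and the log2 fold change was 1.89 ± 0.74 (SE, limma adjusted p = 0.353). In wild-type mice it was -0.82 ± 0.74, and the interaction was 2.70 ± 1.04 (adjusted p = 0.956).

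The small heat shock proteins were dim, and their highest values lay mostly on Nras GFPhigh arrays. In the Nras label comparison 2 of the 5 tested members (Hspb1 and Hspb2) read higher at an unadjusted p under 0.05, or 40% against 6.2% of all genes. At an adjusted p under 0.05 by limma there were 0. Hspb1, Hspb2 and Hspb3 were tested only because they passed the filter on low signal with the help of Nras GFPhigh replicates 1 and 2, so their direction in Nras mice is no support for a difference. Dim genes as a whole also read higher in this comparison: in 10 equal bins of all tested genes by mean log2 signal, the median was 0.73 in bin 1, the dimmest, and 0.62 in bin 2. Hspb1 (HSP27), which binds unfolding proteins and actin, read 47.3, 11.4 and 30.1 in Nras GFP- and 131, 244 and 77.8 in Nras GFPhigh HSCs. The Nras GFPhigh arrays were above all Nras GFP- arrays, with a log2 fold change of 2.42 ± 0.99 (SE, limma adjusted p = 0.373) and of 0.91 with a pseudocount of 100. Hspb2, the partner of Hspb3 in muscle, read 2.7, 65.8 and 18.4 against 161, 340.2 and 40.2 (3.13 ± 1.40), with overlapping groups. Nras GFPhigh replicate 2 stood apart within this class. On that array Hspb7, a heart muscle member that was not tested, read 6059 against 6.1 to 37.3 on the other 11 arrays, and Hspb6 read 2579 against 4.2 to 1330.1. Markers of other cells were also high on Nras GFPhigh replicates 1 and 2. The 10 endothelial and stromal markers summed to 7115, 7117 and 2998 in the Nras GFPhigh arrays and to 546 to 4423 elsewhere. On the Nras GFPhigh arrays 6 to 7 of the 10 were above the array median, against 2 to 6. Of 8 tested markers of that list, 7 read higher and 1 lower in the Nras label comparison, against 53.2% of all genes higher. The median was 2.30 beside 0.08 for all genes. At an unadjusted p under 0.05, 4 of the 8 read higher and 0 lower, or 50% against 12.2% of all genes. Of these markers, Col3a1 and Cxcl12 passed the filter on signal only with the help of Nras GFPhigh arrays. They add no support to these counts or to the median. Over Nras GFPhigh replicates 1 to 3, the stromal gene Col3a1 read 525, 1344 and 20.4, and Sparc 1180, 931 and 128. The endothelial receptor Kdr read 1487.5, 1329 and 163 there, while the endothelial cadherin Cdh5 read 4.3 to 63.9 over all arrays. Pdgfrb, a stromal receptor, went the other way, with 5.3, 109 and 839. The granulocyte sums above also separate replicates 1 and 2 from the rest. Their part in the small heat shock protein values was not tested.

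The interaction repeated these values, since it is the difference between the label effects of Nras and wild-type mice. At an unadjusted p under 0.05, 3 members (Dnajb9, Dnajc28 and Hspa13) had a higher label effect in Nras mice and 0 a lower one, or 4.84% of 62 against 4.68% of all genes (2.43% higher and 2.25% lower). A positive interaction was seen for 45 of 62 members and 53.9% of all genes. The member median was 0.33 beside 0.11 for all genes, and it was 0.145 without Nras GFP- replicate 1 and -0.31 with median centring. Averaged over genotypes, 5 members (Dnajb9, Hspb1, Hspb2, Dnajb1 and Hspa12b) read higher in GFPhigh HSCs and 1, Dnajc6, lower at that level. Together they are 9.68% of the members, against 8.87% of all genes (4.36% higher and 4.51% lower). Hspb1 and Hspb2 passed the filter on low signal with the help of Nras GFPhigh replicates 1 and 2, so they add no support to that count. Of all 62 members 37 read higher, against 51% of all genes. Hspa12b, an HSP70-like protein of endothelial cells, read 2551, 954 and 1286 in wild-type GFP- and 1757, 5825 and 2741 in wild-type GFPhigh HSCs. In Nras mice it read 2212, 1028 and 2259 against 4481, 3321 and 1724, and the groups overlapped in both genotypes (0.91 ± 0.40 averaged, limma adjusted p = 0.550).

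Nras against wild-type HSCs asks what the Nras allele changes within each population. In the GFPhigh population the members of smallest p were the abundant cytosolic chaperones Hsp90aa1 and Hspa8, followed by Dnaja3, Dnajb11 and Dnajb1. Hspa8 (HSC70), the constitutive cytosolic HSP70, read 8873, 9049 and 8164 in wild-type GFPhigh and 12578, 14259 and 10472 in Nras GFPhigh HSCs. Every Nras array was above every wild-type array, and the log2 fold change was 0.51 ± 0.14 (SE, n = 3 per group, limma adjusted p = 0.409). Hsp90aa1, the inducible isoform of cytosolic HSP90, read 5947, 4944 and 5751 against 8638, 8040.4 and 7335. Its groups did not overlap either, and its log2 fold change was 0.53 ± 0.14 (limma adjusted p = 0.409). Dnajb1 (HSP40), the stress-inducible J protein that partners HSC70, read 8603, 9044 and 9155 against 11779, 11756 and 11082 (0.37 ± 0.14), with no overlap. Hspa4, an HSP110-type exchange factor for HSC70, read 6684, 6914 and 5995 against 11802, 7839 and 6905 (0.40 ± 0.20), and overlapped through replicate 3. Its relative Hsph1 had 0.56 ± 0.33.

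Other signals also differed between these 2 groups, though not in the same order over the arrays. Of 16 immediate early and dissociation stress genes, 14 read higher and 2 lower in Nras than in wild-type GFPhigh HSCs. Of all genes, 46.1% read higher. The list median was 0.61 beside -0.09 for all genes. At an unadjusted p under 0.05, 2 of the 16 read higher and 1 lower, or 18.8% against 8.29% of all genes. The summed signal of the 16 was 99855, 40741 and 51470 in Nras GFPhigh and 42100, 31188 and 45745 in wild-type GFPhigh HSCs. In the Nras label comparison 14 of the 16 also read higher, against 53.2% of all genes, with a median of 0.82 beside 0.08. The array control CreX, RNA added from outside the cells, read 28340 and 26505 on Nras GFPhigh replicates 1 and 2, 15416 on replicate 3, and 13026, 16055 and 11335 in wild-type GFPhigh HSCs. The part of either in the values of Hspa8, Hsp90aa1, Dnajb1 and Hspa4 was not tested.

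Of the ER members in the same comparison, Dnajb11 read 3525, 5351 and 4015 in wild-type GFPhigh and 6508, 6963 and 5260 in Nras GFPhigh HSCs (0.55 ± 0.21, SE, limma adjusted p = 0.539). Hspa5 read 5404, 5660 and 4687 against 9320, 9500 and 5218 (0.56 ± 0.23, limma adjusted p = 0.571). For both genes Nras GFPhigh replicate 3 lay within the wild-type range while replicates 1 and 2, arrays of low weight, lay above it. Without the arrays of low weight, Hspa5 had 0.05 and Dnajb11 0.48. Hspa8 then had 0.30 and Hsp90aa1 0.33.

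Among the mitochondrial members, Hspa9 (mortalin), the HSP70 of the matrix, had 0.36 ± 0.24, Hspd1 0.35 ± 0.19 and Hspe1 0.07 ± 0.52. Hspd1 and Hspe1 encode partners in 1 folding machine and share a promoter region, but their signals differed in order on Nras GFP- replicate 1. There Hspd1 read 10347, above the 6259 to 8541 of the wild-type arrays, and Hspe1 read 1009.6, below the 3826 to 6675 of all other arrays. Dnaja3 (TID1), the matrix J protein that partners mortalin, read 619, 1070.0 and 704 in wild-type GFPhigh and 108, 347 and 319 in Nras GFPhigh HSCs. Its groups did not overlap, with a log2 fold change of -1.76 ± 0.67 (SE, limma adjusted p = 0.539). The other probe sets of Dnaja3 gave 0.61 ± 1.27 and -0.10 ± 1.78.

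At an unadjusted p under 0.05, 5 members (Hsp90aa1, Hspa8, Dnajb11, Dnajb1 and Hspa5) read higher and 2 (Dnaja3 and Dnajc16) lower in Nras than in wild-type GFPhigh HSCs. These 7 are 11.3% of the members, against 8.29% of all genes (3.17% higher and 5.12% lower). The member median was 0.05 beside -0.09 for all genes, with 32 of 62 members higher against 46.1% of all genes. The values of the abundant chaperones depended on the scaling of the arrays. With quantile normalization the log2 fold change was 0.00 for Hspa8, -0.09 for Dnajb1, 0.05 for Hspa4, 0.00 for Hspd1, 0.22 for Hsp90aa1, 0.23 for Hspa5 and 0.31 for Dnajb11, and 2 of 62 members were left at an unadjusted p under 0.05, against 7.64% of all genes in that setting. When all tested genes are put in 10 equal bins by mean log2 signal, 20 of the 62 tested members lie in the brightest bin. In this comparison the median of all 1209 genes of that bin was 0.175, and bin 5, near the middle, had -0.33. Whether signal-dependent scaling sets the values of the abundant members was not tested beyond these measurements.

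**Figure D4:**
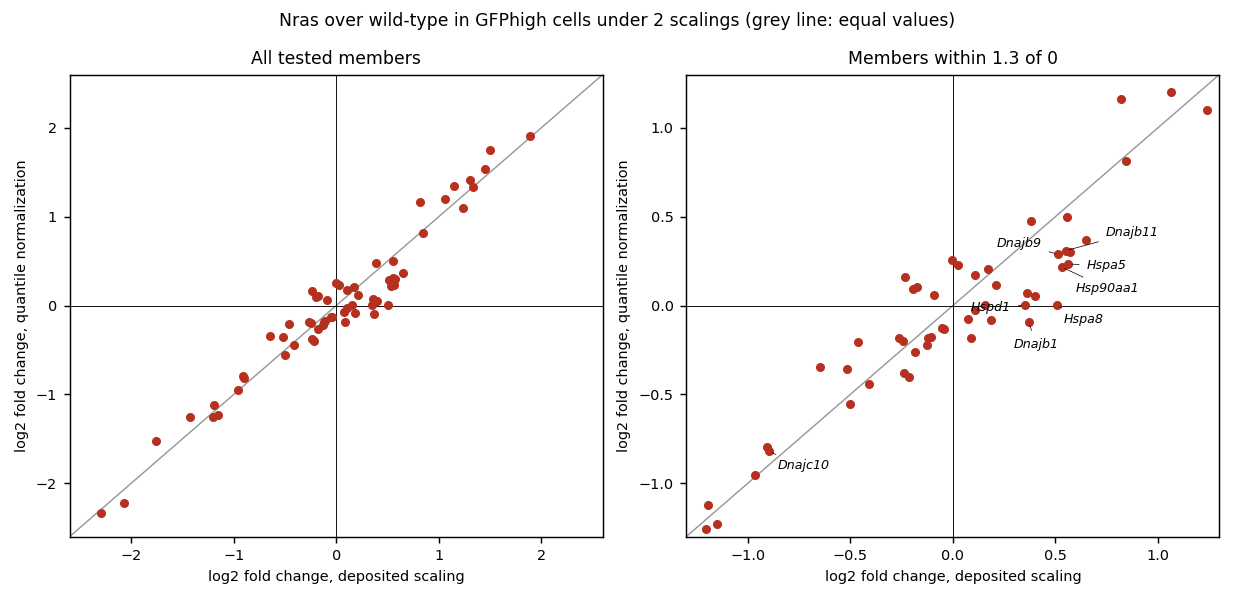
Log2 fold change of Nras over wild-type GFPhigh HSCs of each tested member with the deposited scaling (horizontal axis) and after quantile normalization (vertical axis), for all members and, enlarged, for those within 1.3 of 0. Hspa8, Hspd1 and Dnajb1 drop to between -0.09 and 0.00 after quantile normalization, while Dnajc10 (-0.90 and -0.82) stays near the line of equal values.

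Other probe sets of the same genes, fitted together over all single-symbol probe sets, gave a mixed account. For Hspa8, 2 more probe sets gave 0.53 and 0.53, next to 0.51 for the one used, and these probe sets may share target sequence. For Hsp90aa1, the probe set used gave 0.53 ± 0.155, while another of nearly the same mean log2 signal (12.67 beside 12.69) gave 0.06 ± 0.16. For Hspa5, the next brightest probe set gave 0.03 ± 0.165 against 0.56 for the one used. For Hspa4, the next brightest gave -0.20 ± 0.28. The reading in Hspa8 was thus alike in its 3 brightest probe sets, and those in Hsp90aa1, Hspa5 and Hspa4 differed between the brightest probe set and the next.

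**Figure D5:**
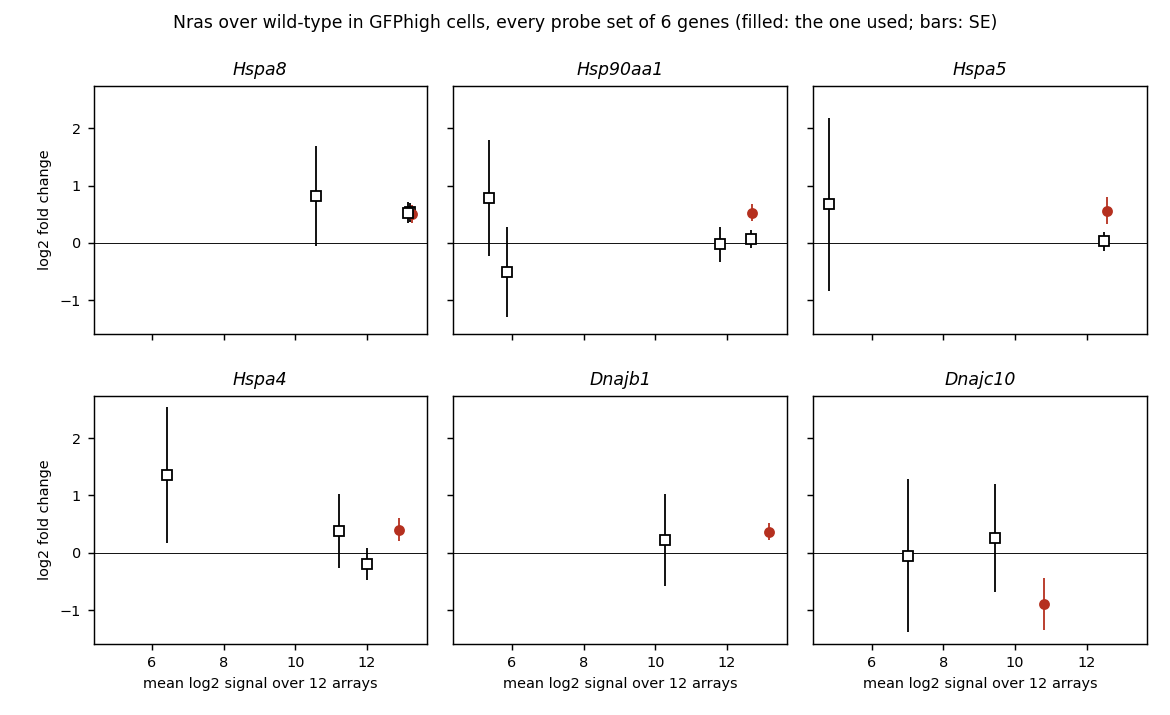
Log2 fold change of Nras over wild-type GFPhigh HSCs for every single-symbol probe set of 6 members, against the mean log2 signal of the probe set over 12 arrays, with SE bars (filled, the probe set used; open, the others). The 3 bright Hspa8 probe sets coincide at 0.51 to 0.53, while the 2 brightest probe sets of Hsp90aa1 stand at 0.53 and 0.06.

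In GFP- HSCs, Nras against wild-type gave 0 members higher and 3 lower at an unadjusted p under 0.05 (Hspa13, Dnajc28 and Hspa2), or 4.84% against 4.39% of all genes (0.968% higher and 3.42% lower). The member median was -0.23 beside -0.175 for all genes, and 21 of 62 members read higher, against 40.6% of all genes. Without Nras GFP- replicate 1, an array of low weight, the member median was 0.03, and with median centring, which moved the median of all genes from -0.175 to 0.43, it was 0.37. Hspa2, an HSP70 best known from male germ cells, read 559.5, 936 and 1556 in wild-type and 110.2, 391 and 597 in Nras GFP- HSCs. The groups overlapped, and the log2 fold change was -1.66 ± 0.72 (SE, limma adjusted p = 0.983). Dnajb9 had -0.47 ± 0.26 here. Hspa8 had 0.15 ± 0.14 and Hsp90aa1 0.18 ± 0.14.

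Averaged over both populations, Nras against wild-type had the highest share of members at an unadjusted p under 0.05. There were 7 higher (Hsp90aa1, Hspa8, Hspa5, Dnajb11, Dnajb1, Hspa4 and Hspd1) and 4 lower (Dnajc10, Dnajc24, Dnaja3 and Dnajc16), together 17.7% of the members against 7.78% of all genes. Split by direction, all genes gave 2.66% higher and 5.12% lower. The count depended on the setting. With a pseudocount of 100 it was 10, against 7.77% of all genes, and with a term for replicate 3 it was 10 (8.11%). It was 9 with array weights (7.46%), 9 with replicates 1 and 2 only (7.7%) and 7 without shared probe sets (7.37%). It was 6 with quantile normalization, against 6.94% of all genes, 2 with median centring (5.18%), 4 with the mean over probe sets (7.55%) and 6 without the arrays of low weight (7.61%), where the shares of all genes are in parentheses. Hsp90aa1 had 0.35 ± 0.10 and Hspa8 0.33 ± 0.10 (SE, limma adjusted p = 0.579 for both). Each genotype gave 6 arrays here, 3 from each population. The labels do not say whether both populations came from the same mice, so the 6 may not be independent. The median of all members was -0.19, beside -0.15 for all genes, and 23 of 62 members read higher, against 40.6% of all genes, so the higher readings of these abundant genes were not shared by the group.

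Dnajc10 had the smallest p of the members that read lower in the Nras average. It read 2368, 3324 and 3113 in wild-type GFP- HSCs, 2121, 2547 and 1820.0 in wild-type GFPhigh HSCs, 712, 2588 and 1790.2 in Nras GFP- HSCs, and 1250, 1168 and 1038 in Nras GFPhigh HSCs. The Nras GFPhigh arrays lay below all wild-type arrays, while Nras GFP- replicate 2 lay within the wild-type range. The log2 fold change averaged over populations was -0.93 ± 0.33 (SE, limma adjusted p = 0.594), with a range of -1.13 to -0.64 over the alternatives. The other probe sets of Dnajc10 gave -0.51 ± 0.67 and -0.66 ± 0.94. Dnajc24, a J protein needed to make diphthamide on elongation factor EEF2, read 338, 538 and 346 in wild-type GFP- and 8.3, 64.4 and 643 in Nras GFP- HSCs. Among GFPhigh HSCs it read 1027, 2380 and 534.5 in wild-type and 1214, 123.5 and 119 in Nras mice. The groups overlapped in both populations (-2.29 ± 0.97 averaged over populations).

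Genes that work with the members were read from 3 lists. Of the cytosolic list (heat shock factors, HSP90 co-chaperones, BAG exchange factors and the chaperonin TRiC), 30 of 33 genes were tested, and 0 passed an adjusted p under 0.05 in any comparison. In GFPhigh against GFP- HSCs of Nras mice, 1 read higher and 5 lower at an unadjusted p under 0.05, or 20% against 12.2% of all genes (6.2% higher and 5.97% lower). The list median was -0.29, beside 0.34 for the members and 0.08 for all genes. Cct3, a TRiC subunit, had -0.96 ± 0.25 (limma adjusted p = 0.205). Ahsa1, which stimulates the HSP90 ATPase, had -1.25 ± 0.37 (limma adjusted p = 0.257). Stip1 (HOP), which bridges HSP70 and HSP90, had -1.59 ± 0.53 (limma adjusted p = 0.290). In the Nras against wild-type comparison of GFPhigh HSCs, 2 TRiC genes, Tcp1 (0.52 ± 0.18) and Cct7 (0.58 ± 0.22), read higher at that level and 0 lower, or 6.67% against 8.29% of all genes. Of the 24 organelle co-chaperones, 0 read higher and 1 lower in the Nras label comparison, the mitochondrial protease Lonp1 (-2.005 ± 0.77), or 4.17% against 12.2% of all genes. Of 10 tested regulators of the unfolded protein response, 1 (10%) read higher there, the transcription factor Atf4 (0.75 ± 0.33, limma adjusted p = 0.394). Xbp1, the factor that IRE1 activates, had 1.37 ± 0.71. Hsf1 was not analysed here.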

How the data were processed

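Total RNA of FACS-purified bone marrow HSCs was hybridised to Affymetrix mouse arrays. The deposited values are MAS5 signal intensities on a linear scale, per the submitters' processing notes and the values; no MAS5 version is stated there. The trimmed mean of each array was 500, so arrays had been scaled globally. Of 45101 probe sets, 64 were controls, 34945 had a single symbol, 932 several and 9160 none. Here 3 zeros were set to 0.1, signals were log2 transformed, and genes above the array median on at least 3 arrays were tested (12083). A 4-group model was fitted with limma 3.58.1 (lmFit, eBayes with an intensity trend) in R 4.3.3, with Benjamini-Hochberg adjustment over all genes tested. The labels call the 3 samples of a group biological replicates but do not say that they are separate animals, so p-values measure the spread between these samples. Replicate numbers were not used to pair the samples in the main fit. Of 18 same-numbered pairs, 3 correlated above 0.1, all of them among replicate 3. The median correlation was 0.042 for same-numbered pairs and -0.012 for the others. With 3 samples per group, these correlations cannot tell whether same-numbered samples came from the same mice.

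Members named with values were the 5 of smallest p in each comparison and a list of well-known chaperones. Dnajc16, Dnajc24 and the small heat shock proteins other than Hspb1 were named after their values were seen. The members, the lists and the tests were chosen with earlier results of these data known. The fit was tested on simulated data. Alternatives changed the filter, scaling, pseudocount, probe sets, array weights, blocks and arrays. Promoter patterns were searched with Python 3.11.15. Hsp90ab1 was not analysed here.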

Additional observations from a re-analysis of the deposited data

How the results depend on the processing

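No member passed an adjusted p under 0.05 with limma in any comparison under any alternative, except 1 (Dnajb9, GFPhigh against GFP- in Nras mice) without Nras GFPhigh replicate 3, so the count there ranged from 0 to 1 when single arrays were left out. The median of the members moved by more than 0.132, the pooled SD of the member medians between replicates, as follows; the causes were not tested. With median centring it was 0.049 (GFP label, wild-type), -0.15 (GFP label, Nras), 0.37 (Nras against wild-type, GFP-), -0.31 (interaction), -0.016 (label averaged) and 0.10 (Nras averaged). With quantile normalization it was 0.21 (label, Nras), 0.145 (interaction) and -0.016 (label averaged). Without the arrays of low weight it was 0.07 (label, Nras), 0.031 (Nras against wild-type, GFP-) and 0.014 (interaction). With the 75th percentile filter it was 0.17 (label, Nras) and 0.004 (label averaged), and without shared probe sets 0.19 and -0.011. With replicates 1 and 2 only it was 0.495 (label, Nras) and 0.50 (interaction). With array weights it was 0.175 (interaction) and -0.041 (Nras averaged).

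When arrays were left out in turn, the median ranged from -0.10 to -0.01 (label, wild-type), 0.22 to 0.43 (label, Nras), -0.33 to 0.031 (Nras against wild-type, GFP-), -0.008 to 0.145 (Nras against wild-type, GFPhigh), 0.145 to 0.43 (interaction), 0.05 to 0.21 (label averaged) and -0.20 to 0.045 (Nras averaged). The upper ends for GFP- HSCs and the Nras average, and the lower end of the interaction, came without Nras GFP- replicate 1. With the replicate number as a block (a replicate block), the member medians were -0.10, 0.34, -0.23, 0.05, 0.33, 0.15 and -0.19 in the 7 comparisons. In that setting 0 members were called. In the Nras average 11 members had an unadjusted p under 0.05, as without the block, against 8.72% of all genes. Of 196 pairs of a named member and a comparison, 118 changed sign under some alternative. With 3 arrays per group, low signals limit what can be read from the dim members.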
